A study of Mus musculus with 24 samples.

Results

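Ammonia that reaches the liver is cleared by hepatocytes of opposite zones of the lobule. Periportal hepatocytes, which meet the portal blood first, hold the urea cycle enzymes and the liver glutaminase, which releases ammonia from glutamine next to the first enzyme of the cycle. A narrow rim of pericentral hepatocytes around the central vein catches the ammonia that escapes this system and binds it to glutamate as glutamine, and Wnt signals from central vein endothelial cells are known to maintain this rim.

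The 9 genes examined were listed members of this system among 48820 symbols of the liver count table, and all 9 were found in each of the 4 count tables. The pericentral side comprised 4 genes: Glul (glutamine synthetase), Oat (ornithine aminotransferase, which makes glutamate from ornithine), Slc1a2 (the glutamate transporter GLT-1) and Rhbg (an ammonium transporter of the Rh family). The periportal side comprised 5 genes: Gls2 (liver-type glutaminase), Cps1 (carbamoyl-phosphate synthetase, the entry step of the urea cycle), Otc (ornithine transcarbamylase), Ass1 (argininosuccinate synthase) and Asl (argininosuccinate lyase). The zone of each gene is textbook knowledge, since whole-liver libraries hold no position.

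Bulk RNA-seq counts of 24 mouse libraries were used, 3 in each of 8 groups. Livers were taken at 12 weeks from HSC-KO mice, which carry Lrat-Cre with floxed alleles of Gdf2 and Bmp10 (fl/fl for both), and from control littermates. Lrat-Cre drives deletion in hepatic stellate cells (HSCs), and the genes deleted encode the ligands GDF2 (BMP9) and BMP10. Liver macrophages (CD45+Ly6C-F4/80+CD64+) and hepatic ECs (CD45-CD31+) were sorted from HSC-KO and control mice of 8 to 10 weeks, and macrophages also from Smad4 fl/fl Vav1-Cre mice (Smad4 cKO, with a Cre active in cells of the blood lineage) and from Smad4 fl/fl mice (Smad4FF). The strain is C57BL/6 in the labels and C57BL/6J in the study's methods. By the column names, ECs and macrophages were sorted from 3 shared mice. The liver comparison asked how loss of the 2 HSC ligands affects the liver, pericentral Wnt targets included.

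Total counts per library ranged from 60911527 to 110879155. Gdf2 in livers measured 18.4, 9.38 and 22.5 CPM (the usual depth-normalised count, here scaled by TMM within a table) in control livers against 3.85, 2.12 and 2.63 CPM in HSC-KO livers, and Bmp10 fell from 2.67 ± 0.644 to 0.156 ± 0.0923 CPM (SD, n = 3). Smad4 fell from 39.4 ± 3.82 to 15.1 ± 2.32 CPM in Smad4 cKO macrophages (log2 fold change -1.39, adjusted p = 0.0023). Xist, transcribed from the inactive X chromosome of female cells, had 12 counts in HSC-KO liver replicate 3 and 31392 to 54369 in the other 5 livers. It was mixed in sorted cells too, with 1765, 0 and 0 counts in control ECs and 2391, 0 and 3491 in HSC-KO ECs. Control macrophages had 0, 0 and 1206 Xist counts and HSC-KO macrophages 0, 7203 and 7959. The summed level of 12 hepatocyte markers was 128268 to 153387 CPM in control and 161112 to 212702 CPM in HSC-KO livers, and none of the 12 was called in livers (edgeR, 3 at an unadjusted p below 0.05). Between control and HSC-KO livers the marker sums of other cell types moved without overlap too. These were 8 EC markers (427 to 532 against 311 to 366 CPM) and 8 stellate cell markers (246 to 330 against 447 to 511 CPM). So did 6 cholangiocyte markers (55.4 to 84.5 against 26.1 to 36.2 CPM) and 4 lymphocyte markers (2.76 to 5.18 against 0.696 to 1.87 CPM). Their part in the liver changes below was not tested.

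Start regions are shown first for the 5 genes with an entry in the RefSeq promoter table (GRCm38.p6, 250 bases before to 50 after the start), since the pericentral members fell together in livers and the pericentral program is known to depend on TCF/LEF factors. Capitals mark the core letters CTTTGA or CTTTGT on either strand, the core bound by TCF/LEF.

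Glul, chr1:153899679-153899978, plus strand: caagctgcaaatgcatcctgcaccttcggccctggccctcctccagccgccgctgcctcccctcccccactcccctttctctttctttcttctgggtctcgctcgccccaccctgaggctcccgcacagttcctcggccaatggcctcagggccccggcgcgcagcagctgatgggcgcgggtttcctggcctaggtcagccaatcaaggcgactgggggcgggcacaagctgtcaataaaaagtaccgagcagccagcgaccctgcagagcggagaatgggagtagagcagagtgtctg
Oat, chr7:132576349-132576648, minus strand: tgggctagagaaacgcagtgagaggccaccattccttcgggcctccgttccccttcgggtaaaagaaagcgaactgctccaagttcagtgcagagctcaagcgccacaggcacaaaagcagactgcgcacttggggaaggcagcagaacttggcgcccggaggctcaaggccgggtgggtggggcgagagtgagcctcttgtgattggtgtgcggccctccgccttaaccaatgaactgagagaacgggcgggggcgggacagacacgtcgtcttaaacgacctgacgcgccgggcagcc
Slc1a2, chr2:102706188-102706487, plus strand: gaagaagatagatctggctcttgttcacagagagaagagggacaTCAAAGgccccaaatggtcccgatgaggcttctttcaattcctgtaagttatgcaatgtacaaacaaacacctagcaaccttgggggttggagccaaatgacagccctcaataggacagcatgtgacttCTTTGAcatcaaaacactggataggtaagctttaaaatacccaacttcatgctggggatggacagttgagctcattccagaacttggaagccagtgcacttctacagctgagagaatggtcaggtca
Otc, chrX:10252055-10252354, plus strand: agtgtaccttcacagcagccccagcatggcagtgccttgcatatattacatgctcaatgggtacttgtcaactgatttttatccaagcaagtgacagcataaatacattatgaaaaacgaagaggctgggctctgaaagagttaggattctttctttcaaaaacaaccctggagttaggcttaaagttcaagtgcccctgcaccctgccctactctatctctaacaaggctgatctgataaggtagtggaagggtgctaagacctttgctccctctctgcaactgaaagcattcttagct
Ass1, chr2:31470020-31470319, plus strand: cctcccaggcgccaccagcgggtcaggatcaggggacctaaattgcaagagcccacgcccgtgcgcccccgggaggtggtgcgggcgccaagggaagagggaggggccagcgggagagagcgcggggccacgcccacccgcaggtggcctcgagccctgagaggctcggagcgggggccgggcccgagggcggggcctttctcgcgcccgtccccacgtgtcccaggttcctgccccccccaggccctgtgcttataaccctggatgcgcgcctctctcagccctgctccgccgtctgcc

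Of these windows only that of Slc1a2 held a core, at 2 places. The first began 206 bases before the start, as the reverse complement of CTTTGA, and the second 77 bases before the start. CTTTGA at 2 or more places was found in 1.73% of 32851 windows of the same length, at 1 or more places in 16.0%, CTTTGT in 18.7%, and either core in 31.2%. The C/EBP letters TTNNGNAA, held by 40.7% of all windows, were present once in the Oat window and at 2 places each in the Slc1a2 and Otc windows. TGACG (20.8% of windows) was found in the Oat window, 33 bases after the start. CAAAGTCCA, an HNF4 site (0.475% of windows), was in none of the 5. The Slc1a2 and Otc windows had a GC content of 45.7% and 44.3%, against 64.3% for Glul, 61.7% for Oat and 74.0% for Ass1. A match of letters is no evidence of binding, and these windows do not cover distant enhancers. The RefSeq start of Slc1a2 used here lies inside its GENCODE gene model. Gls2, Cps1, Asl and Rhbg had no entry.

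In GENCODE vM21 (GRCm38), Glul lies on chr1:153899944-153909723 and Cps1 on chr1:67123026-67231259, both on the plus strand. Slc1a2 lies on chr2:102658659-102790784 and Ass1 on chr2:31470207-31520672, also on the plus strand. Oat (chr7:132557478-132576398), Rhbg (chr3:88242874-88254709) and Asl (chr5:130011258-130029247) are on the minus strand, and Gls2 (chr10:128194457-128210004) and Otc (chrX:10252305-10321024) on the plus strand. Exons of Rhbg share 1190 bases with the predicted gene Gm38392 on the same strand, so its counts are uncertain, and the microRNA gene Mir8114 lies within exons of Glul on the same strand (93 bases). Exons of Glul (116 bases, Teddm2), Gls2 (97 bases, Spryd4) and Slc1a2 (189 bases, Gm13872) overlap genes of the opposite strand, and whether counting used the strand is not given in the sources used here.

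The order of the levels was compared per length, as CPM per kilobase of the union of exons. In control livers Ass1 (829 ± 119 CPM per kb, SD, n = 3) and Cps1 (708 ± 191) were highest, followed by Oat (363 ± 32.6), Glul (216 ± 49.0), Gls2 (123 ± 28.4), Asl (97.4 ± 32.1) and Otc (87.4 ± 11.6). Slc1a2 (11.5 ± 1.17) and Rhbg (6.27 ± 0.529) were lowest. The ranges of neighbours overlapped for Ass1 with Cps1, Gls2 with Asl and Asl with Otc, whereas Cps1, Oat, Glul, Gls2 in this order, and Otc, Slc1a2, Rhbg in this order, did not overlap. In HSC-KO livers the first 2 genes were the same in the same order, and all 5 periportal genes (105 to 1420 CPM per kb) stood above all 4 pericentral genes, with Oat at 34.7 ± 26.4 and Glul at 6.69 ± 1.03 CPM per kb. With the longest transcript as length, Asl passed Gls2 in control livers (195 against 166 CPM per kb).

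In livers, the glutamine-synthesis side fell and the urea cycle side did not pass the test. All 4 pericentral genes were called lower in HSC-KO livers (edgeR quasi-likelihood test, adjusted p below 0.05). Of 17118 tested genes, 1.59% were called lower. All 4 also fell by more than 1 on the log2 scale, and 1.45% of genes were both called lower and fell by that much. None of the 5 periportal genes was called, where 1.24% of genes were called higher. At an unadjusted p below 0.05, 3 of the 5 passed, as did 12.9% of all tested genes, and DESeq2 called 3, where it called 5.39% of 20011 genes in either direction. The median log2 fold change was -4.36 over the pericentral genes and 0.78 over the periportal genes, against -0.01 over all tested genes.

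Glul, the enzyme that defines the perivenous rim, was at 884, 558 and 712 CPM in the control livers against 25.1, 18.4 and 23.1 CPM in the HSC-KO livers. The groups did not overlap, with 42843 to 97576 counts in controls and 1549 to 1876 in HSC-KO livers. The level fell 32.3-fold (log2 fold change -5.01, SE 0.24, adjusted p = 0.00023), and the fitted change stayed between -5.40 and -4.83 in the 15 alternatives.

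Slc1a2, which brings glutamate into the cells that make glutamine, had 18657, 10908 and 12844 counts in the control livers (169, 142 and 142 CPM) and 8, 0 and 0 counts in the HSC-KO livers. All counts left came from replicate 1. The fitted log2 fold change was -12.02 (SE 0.70, adjusted p = 0.00035), a size that rests on those 8 counts because 2 libraries were at 0. Without replicate 1 the size depends on the prior count. The fitted change ranged from -16.68, without HSC-KO replicate 1, to -11.40 when a single library was left out. Slc1a2 is also a gene of the sorted control macrophages, at 73.6, 68.0 and 58.6 CPM. The summed level of 8 macrophage markers in livers went from 312 to 553 CPM in controls to 29.2 to 42.2 CPM in HSC-KO livers, against 35090 to 38042 CPM in sorted control macrophages. In sorted HSC-KO macrophages the same markers summed to 5284 to 5831 CPM, so their level was lower there too. Fewer cells of a type and less RNA per cell cannot be told apart in bulk tissue, and the part of macrophages in the fall of Slc1a2 in livers was not tested.

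Oat, which links ornithine to glutamate, was at 769, 890 and 912 CPM in control livers and at 53.6, 153 and 38.6 CPM in HSC-KO livers. HSC-KO replicate 2 kept more of it than the other two, but still less than any control. The level fell 10.5-fold (log2 fold change -3.39, SE 0.51, adjusted p = 0.016). This call was lost without HSC-KO replicate 1 (adjusted p = 0.078), without any one of the controls (0.051 to 0.064), and against a fold change of 2 (0.05).

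Rhbg, which passes ammonium across the membrane, had low counts in every control liver (13.1, 12.4 and 11.04 CPM) and lower ones in the HSC-KO livers (0.737, 0.750 and 1.30 CPM). The groups did not overlap, and the fall was by 3.71 on the log2 scale (SE 0.27, adjusted p = 0.0010).

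**Figure D1:**
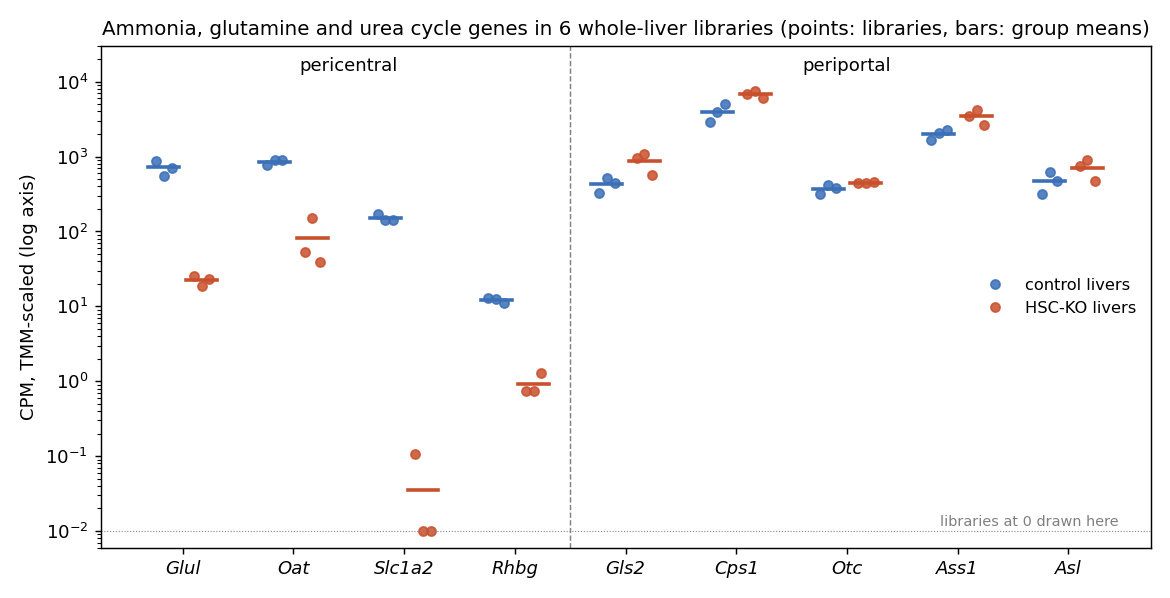
Levels of the 9 genes in 6 whole-liver libraries, in TMM-scaled CPM on a log axis; each point is 1 library and each bar a group mean. The 4 pericentral genes are lower in every HSC-KO liver, while Asl overlaps between groups.

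On the periportal side every fitted change was above 0, from 0.27 to 1.03 on the log2 scale. In 4 of the 5 genes (Gls2, Cps1, Otc, Ass1) the groups did not overlap, as in 19.7% of tested genes in either direction. Gls2 was at 324, 520 and 438 CPM in control livers and at 966, 1090.1 and 565 CPM in HSC-KO livers (log2 fold change 1.03, SE 0.28, adjusted p = 0.13). Cps1 was at 2893, 3895 and 5012 CPM against 6947, 7427 and 5989 CPM (0.79, SE 0.21, adjusted p = 0.13). Ass1 was at 1682, 2081 and 2237 CPM against 3531, 4149 and 2606 CPM (0.78, SE 0.20, adjusted p = 0.11). In all 3 genes HSC-KO replicate 3, the library with almost no Xist, was the nearest to the controls.

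Otc was at 319, 417 and 375 CPM in control livers and at a narrow 441, 444 and 457 CPM in HSC-KO livers (log2 fold change 0.27, SE 0.14, adjusted p = 0.50). Asl went from 470 ± 155 to 705 ± 209 CPM (0.58, SE 0.30, adjusted p = 0.50), with overlapping groups. DESeq2 called Gls2 (adjusted p = 0.0019), Cps1 (0.0063) and Ass1 (0.0042) higher, and without HSC-KO replicate 3, or with Xist as a covariate, edgeR called Gls2 (0.026 and 0.015) and Ass1 (0.035 and 0.025) higher. With the hepatocyte markers as the scale, which moves the median of all genes to -0.40, Otc (-0.11) was fitted below 0 and not called, and the fitted changes were 0.62 for Gls2, 0.41 for Cps1, 0.38 for Ass1 and 0.17 for Asl.

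The ratio of Glul to Gls2 within a library sets glutamine synthesis against glutamine breakdown and needs no scaling between libraries. Glul had 2.73, 1.07 and 1.63 times the counts of Gls2 in the control livers, whereas in the HSC-KO livers Gls2 had 38.4, 59.1 and 24.4 times the counts of Glul. The mean log2 ratio was 0.75 ± 0.67 in controls and -5.25 ± 0.64 in HSC-KO livers (SD, n = 3), a difference of -6.0 with no overlap (exact two-sided permutation test, p = 0.10, the smallest that 3 against 3 allow). As a share of all counts, the 4 pericentral genes took 0.166% to 0.195% of a control library and 0.00606% to 0.0171% of an HSC-KO library. The 5 periportal genes took 0.587% to 0.867% and 0.970% to 1.38%. The mean log2 CPM of the pericentral genes without Slc1a2 minus that of the periportal genes was -2.48 to -1.74 in controls and -7.23 to -6.76 in HSC-KO livers. With Slc1a2, at a pseudocount of 0.01 CPM, it was -2.57 to -1.82 and -9.61 to -8.84.

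**Figure D2:**
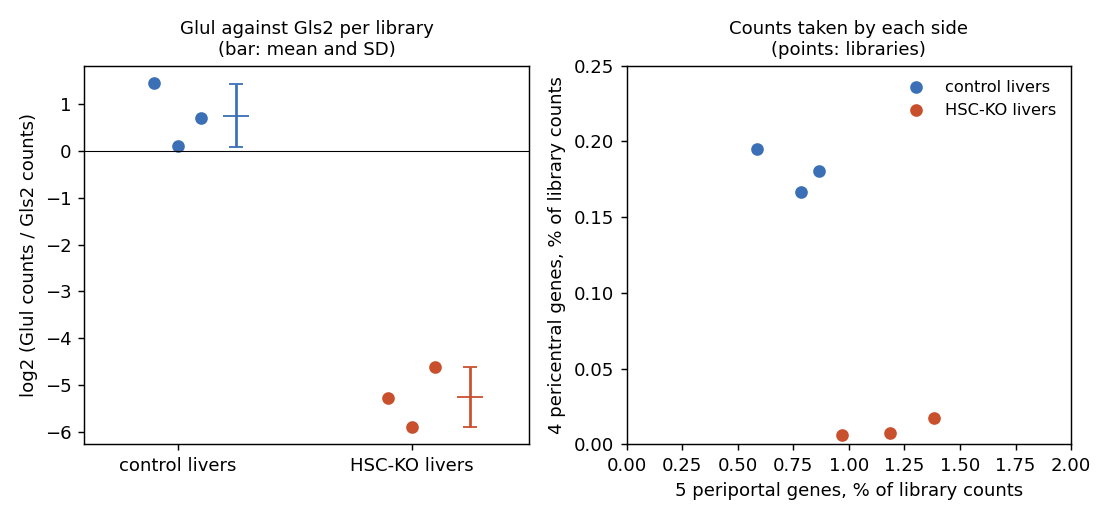
Left, the log2 ratio of Glul to Gls2 counts in each liver library, with the mean and SD beside the points; right, the percent of library counts taken by the 4 pericentral and the 5 periportal genes. Control livers lie above 0 and HSC-KO livers below -4 in the ratio, and the HSC-KO livers hold the larger periportal and the smaller pericentral share.

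Across the 6 livers Slc1a2 (Pearson r = 0.99), Rhbg (0.99) and Oat (0.93) followed the log2 CPM of Glul, and Ass1 and Cps1 (both -0.88), Gls2 (-0.85), Otc (-0.82) and Asl (-0.66) ran against it. These values describe 2 separate groups of 3 livers and mostly restate the difference between them. Among 8429 other genes that averaged log2 CPM 3 or more, the 5 most like Glul were Jam2 (r = 0.991), Rdh9 (0.990), Max (0.989), Cyp4a14 (0.989) and Rdh16 (0.989). Rdh9 fell too (log2 fold change -5.02, SE 0.41, beside -5.01 for Glul), Cyp4a14 by 3.71, Rdh16 by 1.47 and Jam2 by 1.02, all called, while Max (-0.37) was not.

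Other genes of the same zones were set beside these changes. Their lists were chosen with changes in these same libraries known, so the counts are a description and no independent support. Of 10 other pericentral Wnt targets 8 were called lower in HSC-KO livers (median log2 fold change -2.51), and the other two, named after their values were seen, were Nkd1 and Znrf3. Of 10 other periportal genes 2 were called higher, Cdh1 and Hsd17b13, also named after their values were seen (median 1.00 over the 10). In the wider pathway, 58 of 60 listed genes could be tested and edgeR called 2, both lower, where 2.83% of all genes were called in either direction. Gatm, which uses arginine to make the creatine precursor, went from 11.4, 13.2 and 12.8 CPM to 2.18, 2.25 and 2.34 CPM (log2 fold change -2.46, SE 0.16, adjusted p = 0.00054). Gatm was at 1130 ± 419 CPM in sorted control ECs, and the part of ECs, whose markers were lower in the same HSC-KO livers, was not tested. Aqp9, a channel for urea and glycerol, went from 436, 379 and 385 CPM to 200.3, 187 and 229 CPM (-0.96, SE 0.14, adjusted p = 0.013), a call lost without any one of 5 of the 6 libraries (adjusted p = 0.05 to 0.077).

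Nags, which makes the essential activator of Cps1, was at 69.3 ± 15.05 and 79.3 ± 14.2 CPM (adjusted p = 0.78), and Slc25a15, the mitochondrial ornithine carrier, at 338 ± 33.5 and 391 ± 103 CPM (adjusted p = 0.78). Glud1, the mitochondrial glutamate dehydrogenase, was at 1393 ± 175 and 1090.2 ± 60.6 CPM (log2 fold change -0.35, adjusted p = 0.33). Of the listed subgroups, no gene was called by edgeR among 14 glutamate, glutamine and proline enzymes, 9 other ammonia-releasing enzymes, 14 tested transporters and 8 transcription factors. DESeq2 also called the ammonia-releasing enzymes Hal (1.13, adjusted p = 0.0027) and Sdsl (0.95, adjusted p = 0.0020) and the cationic amino acid transporter Slc7a1 (1.29, adjusted p = 0.020), all higher. With Xist as a covariate edgeR called Hal, Sdsl and the related transporter Slc7a2 higher (adjusted p = 0.046, 0.021 and 0.029), and these 4 genes were named after their values were seen.

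**Figure D3:**
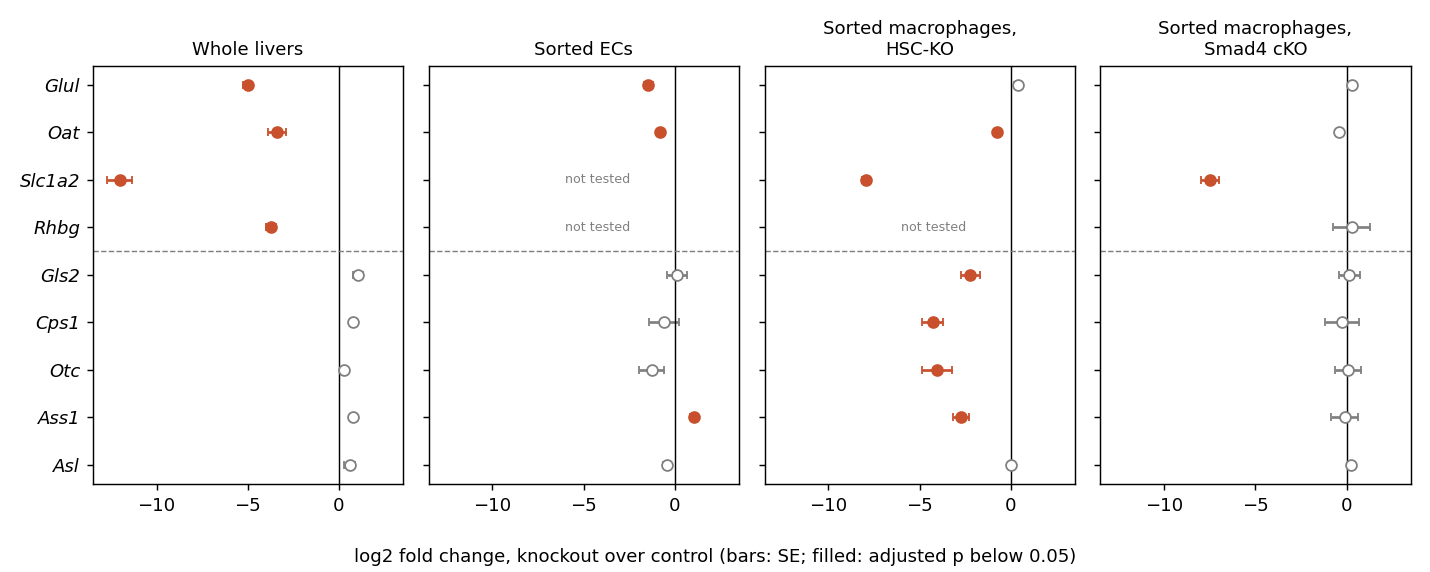
Fitted log2 fold changes with SE of the 9 genes in the 4 comparisons; filled points have an adjusted p below 0.05. Pericentral genes (above the dashed line) are called lower in livers, Slc1a2 is called lower in both macrophage comparisons, and Ass1 is the only gene called higher, in ECs.

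In sorted ECs, 3 of 7 tested members were called, where 20.1% of 16053 genes were called in either direction, 9.77% lower and 10.3% higher. Glul was at 170, 228 and 163 CPM in control ECs and at 91.8, 63.6 and 50.6 CPM in HSC-KO ECs (log2 fold change -1.45, SE 0.24, adjusted p = 0.0059). Oat was at 51.8, 54.1 and 50.4 CPM against 31.9, 28.6 and 27.99 CPM (-0.82, SE 0.12, adjusted p = 0.0035). Ass1, which in ECs is known to recycle citrulline into arginine for nitric oxide synthesis, moved the other way, from 12.9, 8.81 and 8.37 CPM to 21.9, 18.4 and 21.7 CPM (1.04, SE 0.20, adjusted p = 0.010). The groups of these 3 genes did not overlap, as in 40.4% of genes, but none of them passed a test against a fold change of 2. Marker sums moved in the same libraries without overlap, from 16557 to 19143 CPM in control to 5593 to 7269 CPM in HSC-KO ECs over 8 EC markers, from 30.4 to 34.3 to 1.04 to 2.97 CPM over 8 macrophage markers, and from 52.0 to 122 to 30.4 to 42.1 CPM over 8 stellate cell markers. The EC list includes Stab2, which the paper reports lower in these ECs, and the macrophage list includes Cd5l and Clec4f. Such sums cannot tell a change of cell content from a change within the sorted cells. The part of these markers in the changes of the members in ECs was not tested.

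The other members were near 0 in ECs or did not pass. Asl was at 22.0 ± 3.47 and 16.5 ± 4.07 CPM (adjusted p = 0.24), and Gls2, Cps1 and Otc at no more than 1.19 CPM in any EC library (adjusted p = 0.93, 0.69 and 0.26). Slc1a2 had 0 to 7 counts and Rhbg 0 to 4, too few to test. Set against the mean of control livers, a level set across tables that were scaled separately, Glul in control ECs was 26.1%, Oat 6.07%, Asl 4.68% and Ass1 0.502%, while the other 5 members were at 0.0114% to 0.159%. The 11 hepatocyte markers other than Trf were at 0.0573% to 0.298%, so only Glul, Oat, Asl and Ass1 exceeded the level at which hepatocyte transcripts appeared in these sorted cells. Gatm fell in ECs from 1130 ± 419 to 68.8 ± 86.8 CPM (log2 fold change -4.04, adjusted p = 0.023). Of 46 tested genes of the wider pathway 4 were called higher and 7 lower in ECs, where 10.3% and 9.77% of all genes were.

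The change of a member in ECs was set against that in livers in 1 model over 12 libraries, in which 7.52% of 19011 genes differed. Glul differed (the EC change was less negative by 3.60 on the log2 scale, SE 0.37, adjusted p = 0.00017) and so did Oat (2.61, SE 0.55, adjusted p = 0.015). Slc1a2 passed the filter of this model through the livers alone and had 14 EC counts in all, so its call (10.65, SE 2.68, adjusted p = 0.034) says nothing of a change in ECs. The call was also lost without EC HSC-KO replicate 1 (adjusted p = 1), EC control replicate 2 (0.053) or any one of the control livers (0.057 to 0.058). The periportal genes were not called, Ass1 among them (0.30, SE 0.33, adjusted p = 0.68). Without EC HSC-KO replicate 1 Otc was called (adjusted p = 0.011), as it was with DESeq2 (0.0034), with the lower change in ECs. RNA was extracted by another method from tissue than from sorted cells, and the livers came from older mice than the sorted cells, neither of which can be told apart from the difference in material.

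In macrophages of HSC-KO mice, 6 of 8 tested members were called lower, where 9.87% of 16337 genes were called lower. Slc1a2 was the strongest, from 73.6, 68.0 and 58.6 CPM in control macrophages to 0.239, 0.241 and 0.318 CPM (log2 fold change -7.96, SE 0.21, adjusted p = 7.7e-06), or 3354 to 6224 counts against 21 to 29. The 8 macrophage markers were lower in the same HSC-KO macrophage libraries (35090 to 38042 against 5284 to 5831 CPM). They include Cd5l and Clec4f, which the paper reports lower in HSC-KO macrophages as Kupffer cell identity genes. The part of these markers in the fall was not tested. Oat went from 93.3, 94.6 and 84.3 CPM to 54.0, 58.6 and 49.0 CPM (-0.75, SE 0.12, adjusted p = 0.0040), a call lost against a fold change of 2. Glul, by contrast, was at 188, 209 and 247 CPM in control and at 341, 252 and 242 CPM in HSC-KO macrophages, with overlapping groups (0.38, SE 0.17, adjusted p = 0.18). Asl was at 47.6 ± 8.51 and 48.2 ± 6.71 CPM (log2 fold change 0.02, SE 0.17).

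All periportal genes but Asl were called lower in HSC-KO macrophages, with groups that did not overlap, as in 40.3% of genes. Ass1 was at 32.8, 25.8 and 51.6 CPM against 4.55, 3.27 and 8.90 CPM (log2 fold change -2.72, SE 0.42, adjusted p = 0.0041), and Cps1 at 3.50, 5.59 and 14.9 CPM against 0.410, 0.336 and 0.482 CPM (-4.28, SE 0.59, adjusted p = 0.0024). Otc went from 4.02 ± 1.86 to 0.239 ± 0.251 CPM (adjusted p = 0.014) and Gls2 from 2.51 ± 1.30 to 0.541 ± 0.238 CPM (0.024). The call of Gls2 was lost without control replicate 3 or HSC-KO replicate 1 or 2 (adjusted p = 0.073 to 0.081). It was also lost against a fold change of 2 (glmTreat, adjusted p = 0.14). The call of Otc was lost without HSC-KO replicate 1 (0.059).

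Hepatocyte transcripts were present in these macrophage libraries too. The 11 hepatocyte markers without Trf, which macrophages also express, summed to 281, 815 and 1044 CPM in control and to 390, 461 and 600 CPM in HSC-KO macrophages, with overlapping groups. None of the 12 was called (edgeR, 2 at an unadjusted p below 0.05, median log2 fold change -0.79). As percent of the control-liver mean, Cps1 went from 0.204% to 0.0104%, Gls2 from 0.588% to 0.127%, Otc from 1.08% to 0.0644% and Ass1 from 1.84% to 0.279%, while the 11 markers were at 0.409% to 1.60% in control and 0.281% to 0.932% in HSC-KO macrophages. Of the 4 genes only Ass1 in control macrophages stood above all 11 markers, as did Slc1a2 (44.2%), Glul (29.9%), Oat (10.6%), Asl (10.1%) and Rhbg (2.94%, on 0 to 39 counts). The part of hepatocyte RNA in the falls of the 4 periportal genes was not tested. EC markers moved in the same libraries, from 555 to 797 CPM in control to 73.9 to 139 CPM in HSC-KO macrophages over 8 genes, and lymphocyte markers from 10.4 to 19.2 to 28.8 to 90.6 CPM over 4 genes. Of the EC markers, Cdh5 is also among the Kupffer cell identity genes that the paper reports lower in these macrophages. The part of either marker list was not tested.

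**Figure D4:**
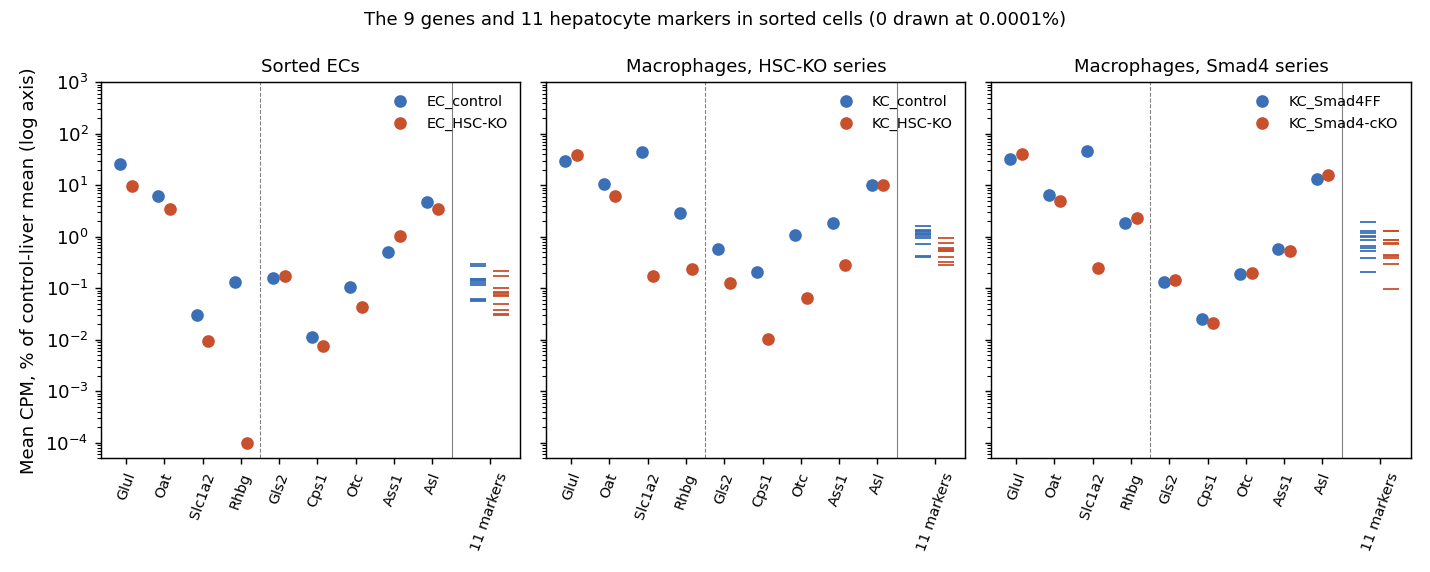
Mean CPM of the 9 genes and of 11 hepatocyte markers in sorted cells as percent of the control-liver mean, on a log axis; tables were scaled separately. Slc1a2 drops from 44.2% to 0.176% in HSC-KO macrophages, and Cps1 lies below all 11 markers in every sorted group.

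In a test of HSC-KO macrophages against livers, added after these directions had been seen, 7 of 9 members differed, where 9.09% of 19194 genes did. Glul (5.36, SE 0.32), Slc1a2 (4.04, SE 0.74) and Oat (2.61, SE 0.56) had the higher change in macrophages, whereas Cps1 (-5.11, SE 0.66), Otc (-4.34, SE 0.78), Ass1 (-3.53, SE 0.53) and Gls2 (-3.27, SE 0.59) had a lower change there than in livers, with adjusted p from 1.2e-05 to 0.014. The value of Slc1a2 rests on 8 counts in HSC-KO liver replicate 1 and was 8.84 without that library. Asl was not called (adjusted p = 0.41), and Rhbg, too low for a test in these macrophages alone, gives no information here.

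In Smad4 cKO macrophages 1 of 9 members was called, where 7.74% of 17517 genes were called in either direction and 4.03% lower. Slc1a2 was at 72.9, 88.7 and 47.9 CPM in Smad4FF macrophages and at 0.577, 0.396 and 0.167 CPM in Smad4 cKO macrophages (log2 fold change -7.50, SE 0.47, adjusted p = 0.00018). The 8 macrophage markers summed to 28772 to 36157 CPM in Smad4FF and 5349 to 6366 CPM in Smad4 cKO libraries. Cholangiocyte markers moved without overlap too (4.39 to 5.63 against 10.3 to 22.5 CPM over 6 genes). The sum of the 12 hepatocyte markers did as well (1564 to 1910 against 2988 to 5426 CPM), but Trf alone was called, higher. Without Trf the other 11 overlapped, at 335 to 609 CPM in Smad4FF and 177 to 620 CPM in Smad4 cKO libraries. The part of these markers was not tested. Glul was at 237 ± 41.7 and 293 ± 58.3 CPM (adjusted p = 0.43) and Oat at 60.3, 51.0 and 55.9 CPM against 34.2, 46.7 and 44.7 CPM, without overlap, as in 29.4% of genes, but not called (-0.41, SE 0.15, adjusted p = 0.17). Asl was at 62.8 ± 7.66 and 74.4 ± 6.72 CPM (0.36). Ass1 ranged from 5.85 to 19.2 CPM in Smad4FF and from 4.11 to 23.9 CPM in Smad4 cKO libraries, and Smad4 cKO replicate 2, with the highest Ass1, was also the highest of its group in Cps1 (1.99 CPM), Otc (1.49 CPM), Gls2 (1.13 CPM) and the 11 hepatocyte markers (620 CPM, against 177 and 206 CPM).

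The direct test of the HSC-KO against the Smad4 cKO change in macrophages called none of the 9 members with edgeR (4 at an unadjusted p below 0.05), where 3.00% of 18280 genes were called, and DESeq2 called Cps1 (adjusted p = 0.0068) and Otc (0.0053). Otc was also called without HSC-KO macrophage replicate 2, and Cps1 without Smad4 cKO replicate 3 (adjusted p = 0.047 each). Slc1a2 changed by -7.96 and -7.50 in the 2 comparisons (difference -0.42, SE 0.48, adjusted p = 0.74), and Glul by 0.38 and 0.31 (difference 0.12, SE 0.28, adjusted p = 0.90). The differences for Otc (-4.09, SE 1.19, adjusted p = 0.099), Cps1 (-3.97, SE 1.22, adjusted p = 0.12), Ass1 (-2.55, SE 0.95, adjusted p = 0.20) and Gls2 (-2.30, SE 0.82, adjusted p = 0.17) were large with wide errors. Without Smad4 cKO replicate 2 they were -2.25 for Cps1, -1.21 for Ass1 and -1.52 for Gls2 (adjusted p = 0.30, 0.45 and 0.37). Of 52 tested genes of the wider pathway, 3 were called higher and 11 lower in HSC-KO macrophages, where 9.29% and 9.87% of all genes were. In Smad4 cKO macrophages 1 of 55 tested was called higher and 3 lower, where 3.71% and 4.03% of all genes were.

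**Figure D5:**
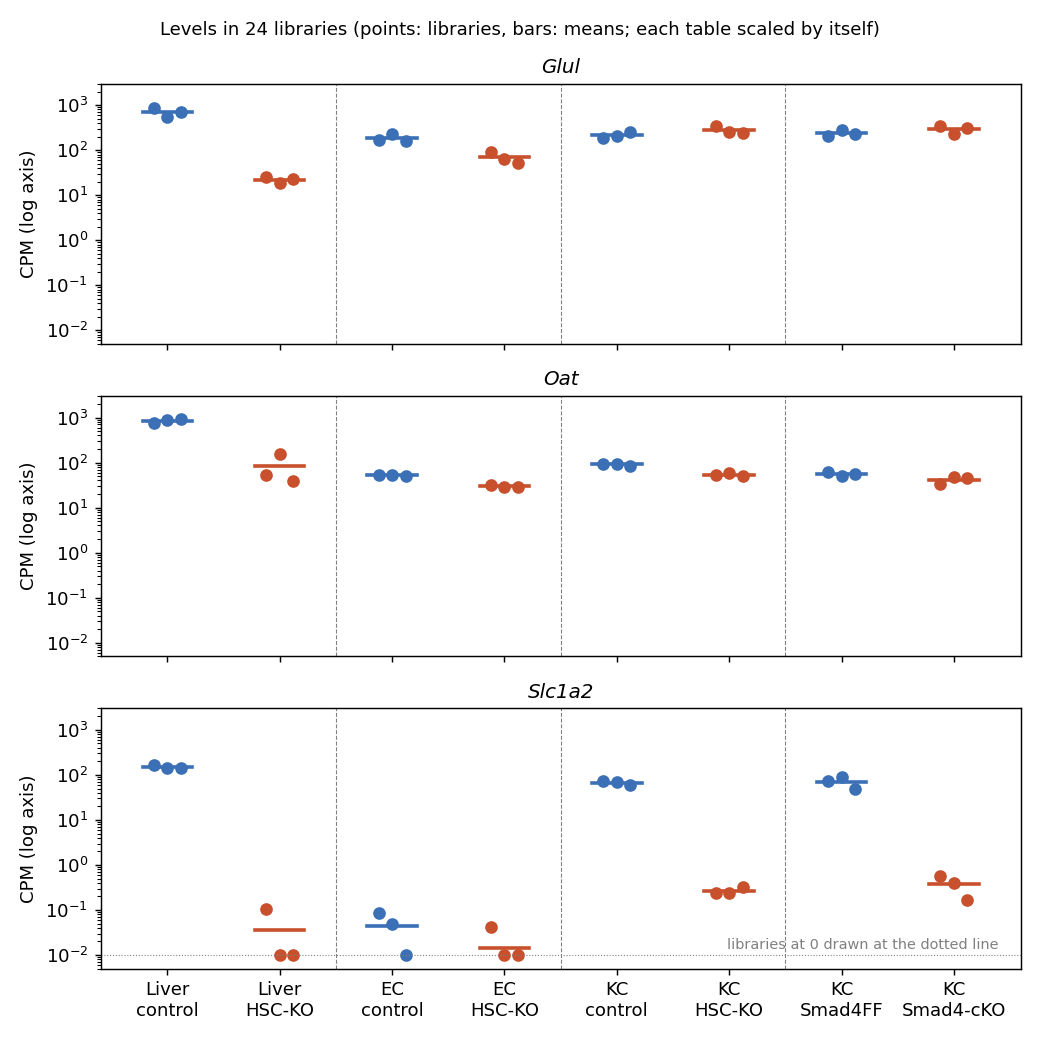
Glul, Oat and Slc1a2 in all 24 libraries, in CPM on a log axis; points are libraries, bars are group means, and each table was scaled by itself. Glul is called lower in livers and ECs and not called in macrophages, whereas Slc1a2 is called lower in livers and in both kinds of knockout macrophage.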

How the data were processed

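RNA was sequenced from whole livers, sorted hepatic ECs and sorted liver macrophages, 24 libraries in 4 count tables. The values are raw counts per gene deposited by the authors, whose processing notes name FastQC, HISAT2, featureCounts and DESeq2 with mm10 (GRCm38). The versions, annotation and strand setting are not given in the sources used here. Tissue RNA was extracted with TRIzol and RNA of sorted cells with a column kit. Every column of values belonged to a labelled sample.

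Groups came from the labels. Each comparison (HSC-KO against control livers, ECs and macrophages, and Smad4 cKO against Smad4FF macrophages) was fitted on its own table of 6 libraries with edgeR 4.0.16 (R 4.3.3): filterByExpr (minimum count 10, minimum total count 15), TMM scaling and the quasi-likelihood test, with Benjamini-Hochberg adjustment over all tested genes. A gene was called at an adjusted p below 0.05. Differences between changes were tested as an interaction over the 12 libraries of a pair of tables. CPM were scaled within each table. The Glul to Gls2 ratio was compared by an exact permutation test. Lengths came from GENCODE vM21 and start regions from RefSeq (GRCm38.p6). The study's methods describe the 3 libraries of a group as independent biological replicates.

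The 9 genes and the lists were chosen with earlier results of these data known. Named besides them were genes of the wider list called in livers, Nags, Glud1 and Slc25a15, the checks Gdf2, Bmp10 and Smad4, and the 5 genes most correlated with Glul among genes averaging log2 CPM 3 or more. Some further listed genes are not reported here. The scripts were tested on simulated data. Alternatives were DESeq2 1.42.0, other scalings and filters, a test against a fold change of 2 (glmTreat), Xist as a covariate, a replicate block, and leaving out each library.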

Additional observations from a re-analysis of the deposited data

Results flagged for a closer look

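The change between knockout and control differed between materials by a test of the difference itself (edgeR quasi-likelihood interaction, adjusted over all genes) for the following genes. Between ECs and livers the difference in log2 fold change was 3.60 for Glul and 2.61 for Oat. For Slc1a2 it was 10.65, but Slc1a2 had too few counts for a test in ECs alone, so this value says nothing of a change there. Its call was lost without EC HSC-KO replicate 1 (adjusted p = 1), EC control replicate 2 (0.053) or any one of the control livers (0.057 to 0.058), and with the replicate block (0.073).

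The test of HSC-KO macrophages against livers was added after the directions had been seen. There the difference was 5.36 for Glul, 2.61 for Oat and 4.04 for Slc1a2, each with the lower change in livers. The last was 8.84 without HSC-KO liver replicate 1, which held all 8 counts left in HSC-KO livers. The difference was -3.27 for Gls2, -5.11 for Cps1, -4.34 for Otc and -3.53 for Ass1, each with the lower change in macrophages. Gls2, Cps1 and Otc did not stand above the 11 hepatocyte markers in control or HSC-KO macrophages. The part of hepatocyte RNA was not tested.

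Ass1 rose in ECs of HSC-KO mice (log2 fold change 1.04) and fell in their macrophages (-2.72). The groups did not overlap in either, as in 40.4% of genes in ECs and 40.3% in HSC-KO macrophages. The EC call was lost against a fold change of 2. In HSC-KO macrophages Ass1, at 0.279% of the control-liver mean, lay below all 11 hepatocyte markers (0.281% to 0.932%), and above all 11 in control macrophages. The difference between these changes was not tested.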

How the results depend on the processing

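Of 130 recomputed counts and ratios, 115 stayed within 1.5 times the main count, or kept the direction of the Glul to Gls2 ratio, and 15 moved. Among single genes no called value changed sign. The number of the 9 genes called in livers went from 4 to 7 with DESeq2 and from 3 to 6 when a library was left out. For the wider pathway in livers the 2 calls, both lower, became 5 with DESeq2 and with the Xist covariate (3 higher and 2 lower in each), 4 with hepatocyte marker scaling, 1 against a fold change of 2, and 1 to 3 without single libraries. In ECs the 3 calls became 0 against a fold change of 2. In HSC-KO macrophages the 6 calls became 4 to 6 over the alternatives. The EC against liver test gave 4 calls with DESeq2 in place of 3, and 2 to 3 without single libraries, with Slc1a2, too low for a test in ECs alone, among the 3. The HSC-KO against Smad4 cKO test in macrophages gave 2 with DESeq2 in place of 0, and 0 to 1 without single libraries. Over all genes in livers, 484 were called, against 1079 with DESeq2, 142 with glmTreat, 792 with hepatocyte marker scaling and 193 to 515 without single libraries. The cause was not tested.

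The data showed no clear pairing of samples by replicate number, which such small correlations cannot exclude. The correlation of the deviations of same-numbered libraries was 0.015, 0.049 and 0.013 in livers and 0.103, 0.117 and 0.033 in ECs. It was 0.162, -0.107 and 0.060 in HSC-KO macrophages and -0.0076, 0.099 and -0.099 in Smad4 cKO macrophages. In no comparison did all pairs exceed 0.1. In ECs every library correlated best with the library of its own number, a hint from the data and not from the design, and in the other comparisons this did not hold. With the replicate block the count in livers was 4, the call of Slc1a2 between ECs and livers was lost (adjusted p = 0.073), Otc was called there (0.022), the HSC-KO against Smad4 cKO test gave 1 call (Ass1, 0.041), and 296 of all genes were called in livers. Scaling by library size alone moved the median log2 fold change of all genes from -0.01 to -0.12 in livers, from 0.0048 to 0.30 in ECs, from 0.04 to 0.13 in HSC-KO macrophages and from 0.04 to 0.19 in Smad4 cKO macrophages. Xist did not vary enough in the Smad4 table for a covariate. Slc1a2 and Rhbg in ECs, and Rhbg in HSC-KO macrophages, had too few counts for a test.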
